A study of Mus musculus with 71 samples.

Results

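The 8 mouse genes Lat, Lat2, Lcp2, Grap2, Trat1, Sit1, Fyb and Skap1, which encode adaptor proteins of lymphocyte antigen-receptor signalling, were followed by RNA sequencing through an allelic series of the B-lineage transcription factor Pax5 and through early T-cell development. The genes were chosen by symbol, with earlier results of these data known. The paper names Lcp2, Lat2, Grap2, Sit1 and Fyb among the genes changed in its Pax5 mutants. All 8 were present among the 25579 genes of the Pax5 files and among the 24420 genes of the files on uncommitted and T-lineage cells. The study asked which domains of Pax5 are needed for its gene regulation and for commitment to the B lineage. It sorted cells from C57BL/6 mice and deposited TPM values, in which a read count is divided by transcript length and scaled to the total of the library, so that levels of different genes can be set side by side.

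The Pax5 series had 31 libraries of bone marrow cells in 14 groups, 5 of them from Pax5 +/+ pro-B cells and 2 from each other genotype. Homozygous mutant pro-B cells lacked the octapeptide (∆OP/∆OP), the partial homeodomain (∆HD/∆HD) or both (∆OP,HD/∆OP,HD). The C-terminal regions CRD1, CRD2 or both were deleted either on both alleles (∆CRD1/∆CRD1, ∆CRD2/∆CRD2, ∆CRD1,2/∆CRD1,2) or on one allele opposite a null allele (∆CRD1/−, ∆CRD2/−, ∆CRD1,2/−). Progenitors without Pax5 (∆/∆) carried Pax5 fl/fl and Vav-Cre, a Cre transgene active in all haematopoietic cells. A separate experiment compared Vav-Cre Pax5 fl/+ pro-B cells (+/∆) with Vav-Cre Pax5 Prd/fl progenitors (Prd/∆), in which the Pax5 protein is reduced to its paired domain, and with Vav-Cre Pax5 fl/fl progenitors (∆/∆); all 3 groups of this experiment carried Vav-Cre. The other 17 libraries were wild-type LMPPs of the bone marrow (lymphoid-primed multipotent progenitors, 2 libraries), wild-type thymocytes at the successive double-negative stages DN1, DN2a, DN2b (3 libraries each), DN3a and DN3b (2 each), and DN3a thymocytes labelled Rag2-/- (2 libraries), which cannot rearrange antigen-receptor genes. The labels give 2 of the 3 libraries of DN1, of DN2a and of DN2b the same replicate number, so that 3 libraries may stand for 2 replicates; the 34 adaptor calls over the stages were 34 with such libraries averaged. The ∆CRD1/− and ∆CRD1,2/− cells were sorted from mice aged 3 to 5 weeks. Ages for the sorts of the other groups, and whether libraries of a group came from separate mice, were not given in the sources used here, so that p-values measure the spread between libraries.

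Adaptors have no enzyme activity of their own. LAT and its relative LAT2 (also NTAL or LAB) sit in the membrane and become docking sites once phosphorylated below an activated receptor. The LAT complex, joined through GADS (encoded by Grap2) to SLP-76 (Lcp2), brings phospholipase C and guanine-nucleotide exchange factors together downstream of the T-cell receptor, while B cells use LAT2 and the SLP-76 relative BLNK for much of this work, and immature B-lineage cells also express SLP-76 and LAT below the pre-B-cell receptor. TRIM (Trat1) and SIT (Sit1) are small transmembrane adaptors of the receptor surroundings, SIT being known as a negative regulator. ADAP (Fyb) and its partner SKAP1 bind SLP-76 and carry the signal to integrins.

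Wild-type pro-B cells expressed these genes over a range from undetected to above 100 TPM. Sit1 had the highest level, at 95.01, 153.2, 199.4, 166.4 and 138.9 TPM in Pax5 +/+ replicates 1 to 5, the order used throughout. Lat followed with 48.2, 76.3, 50.3, 52.5 and 54.8 TPM. Lcp2 lay at 18.9, 20.6, 19.5, 25.1 and 16.2 TPM. Grap2, Lat2, Skap1 and Fyb were lower, with means of 12.5 ± 2.02, 9.19 ± 1.54, 5.00 ± 1.98 and 3.54 ± 0.684 TPM (SD, n = 5). Trat1 had no read in any of the 5 libraries, which allows a level of up to 0.308 to 0.438 TPM, the value of 3 reads in each. Intervals and limits of this kind cover counting error only. Neighbours in this order whose libraries overlapped were Grap2 with Lat2, Lat2 with Skap1 and Skap1 with Fyb.

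The genes lie on different chromosomes apart from Grap2 and Fyb on chromosome 15 and Lcp2 and Skap1 on chromosome 11, where each pair is far apart. In build GRCm38, Lcp2 spans 34046920 to 34092295 on chromosome 11 (plus strand), Grap2 spans 80572594 to 80652854 on chromosome 15 (plus), Sit1 spans 43482081 to 43483734 on chromosome 4 (minus) and Trat1 spans 48730774 to 48772021 on chromosome 16 (minus). Promoters of these 4 are shown because Lcp2 and Sit1 fell, and Grap2 and Trat1 rose, where Pax5 was missing. The sequences are the 250 bases before the RefSeq start site, written 5′ to 3′ on the gene's strand. For Grap2, and for Fyb counted below, this start lies inside the span of the gene, so the window precedes an internal start. Capitals mark E-boxes (CANNTG), GATA motifs (AGATAA), TCF motifs (CTTTGAT) and RUNX motifs (TGTGGT) on either strand.
Lcp2, chr11:34046678-34046927: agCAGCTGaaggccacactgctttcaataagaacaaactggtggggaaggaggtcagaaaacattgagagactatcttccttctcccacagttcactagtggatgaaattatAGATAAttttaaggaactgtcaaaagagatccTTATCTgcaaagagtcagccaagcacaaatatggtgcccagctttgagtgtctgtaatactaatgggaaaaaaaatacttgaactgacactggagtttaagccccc
Sit1, chr4:43483710-43483959: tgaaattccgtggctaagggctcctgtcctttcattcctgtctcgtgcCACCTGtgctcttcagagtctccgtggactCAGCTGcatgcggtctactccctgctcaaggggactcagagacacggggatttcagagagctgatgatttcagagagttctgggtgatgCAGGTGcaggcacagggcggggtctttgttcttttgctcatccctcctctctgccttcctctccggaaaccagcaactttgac
Grap2, chr15:80623233-80623482: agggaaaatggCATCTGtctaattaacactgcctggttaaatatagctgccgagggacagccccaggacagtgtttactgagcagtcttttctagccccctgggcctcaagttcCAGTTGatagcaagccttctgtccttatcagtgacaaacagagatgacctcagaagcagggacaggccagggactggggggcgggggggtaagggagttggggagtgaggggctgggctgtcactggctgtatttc
Trat1, chr16:48772063-48772312: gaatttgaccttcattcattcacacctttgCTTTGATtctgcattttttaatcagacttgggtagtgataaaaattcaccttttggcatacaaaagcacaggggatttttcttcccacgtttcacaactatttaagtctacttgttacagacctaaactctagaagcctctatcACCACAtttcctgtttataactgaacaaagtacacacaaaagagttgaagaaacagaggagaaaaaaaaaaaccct
Of the 8 genes, 6 had a promoter in the RefSeq table of this build, and Lat2 and Skap1 were not matched. E-boxes stood in 4 of the 6 (Grap2, Lat, Lcp2 and Sit1), against 66.2% of all 32851 promoters of this length. GATA motifs stood in Fyb and Lcp2 (9.99% of all promoters), and a TCF motif (3.21%) and a RUNX motif (14.05%) in Trat1. Neither the ETS motif GGAAGT (19.7%) nor GCGTNAC, a core of the Pax5 recognition sequence (5.05%), was found in the 6 windows. These matches describe letters in a window and are not evidence of a bound factor.

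Across the Pax5 libraries, reads recovered from the TPM values came to between 10018678 and 43784791 per library (median 31261865), the lowest in a ∆/∆ library. The depth of the T-lineage libraries is unknown. Pax5 +/+ replicates 3 and 4 and all mutants other than ∆CRD1/∆CRD1 and the first ∆/∆ group were sequenced with 100-nt reads, the others with 50-nt reads. Sit1 and Skap1 differed between wild-type libraries of the 2 read lengths, at 129 against 183 TPM and 3.69 against 6.96 TPM (means of 3 libraries with 50-nt and 2 with 100-nt reads). Fitted changes of the C-terminal mutants therefore include a term for read length. As the paper trimmed all reads to 50 bases before alignment, this term separates sets of libraries and not aligned lengths. Per the paper, cells of ∆CRD1,2/− and the first ∆/∆ group were sorted as B220+ Kit-hi Ly6D+ progenitors without other lineage markers. It defines ∆CRD1,2/∆CRD1,2 cells by the same markers but does not state the gate of their RNA libraries, so the same gate is assumed here. The labels call the cells of both ∆CRD1,2 genotypes pro-B cells. Prd/∆ and ∆/∆ cells of the paired-domain experiment are labelled as progenitors with alternative gating, which the labels do not define. They are grouped here with the other progenitors, but the ∆/∆ groups of both experiments may not share a gate. Cells of the remaining genotypes were sorted as pro-B cells, so that gate and genotype cannot be told apart for the 5 progenitor groups. Pax5 transcript levels were 342 to 524 TPM in Pax5 +/+ and 1609 to 1697 TPM in ∆/∆. A gene-level value does not separate the deleted part, so it does not check the genotype labels. Likewise Rag2 was at 35.5 to 42.2 TPM in the libraries labelled Rag2-/- and 48.7 to 75.5 TPM in wild-type DN3a cells.

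The 8 genes split into 3 patterns over the Pax5 series, which the plot of levels by genotype shows. Lat2, Grap2, Fyb and Trat1 were highest in ∆/∆ progenitors. Lcp2, Sit1 and Skap1 were low in ∆/∆, and Skap1 also in the CRD1 mutants. Lcp2 was low in the CRD1 mutants other than ∆CRD1/∆CRD1, where it was intermediate. Lat stayed within 52.4 to 220.3 TPM over all 14 genotype means.

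**Figure D1:**
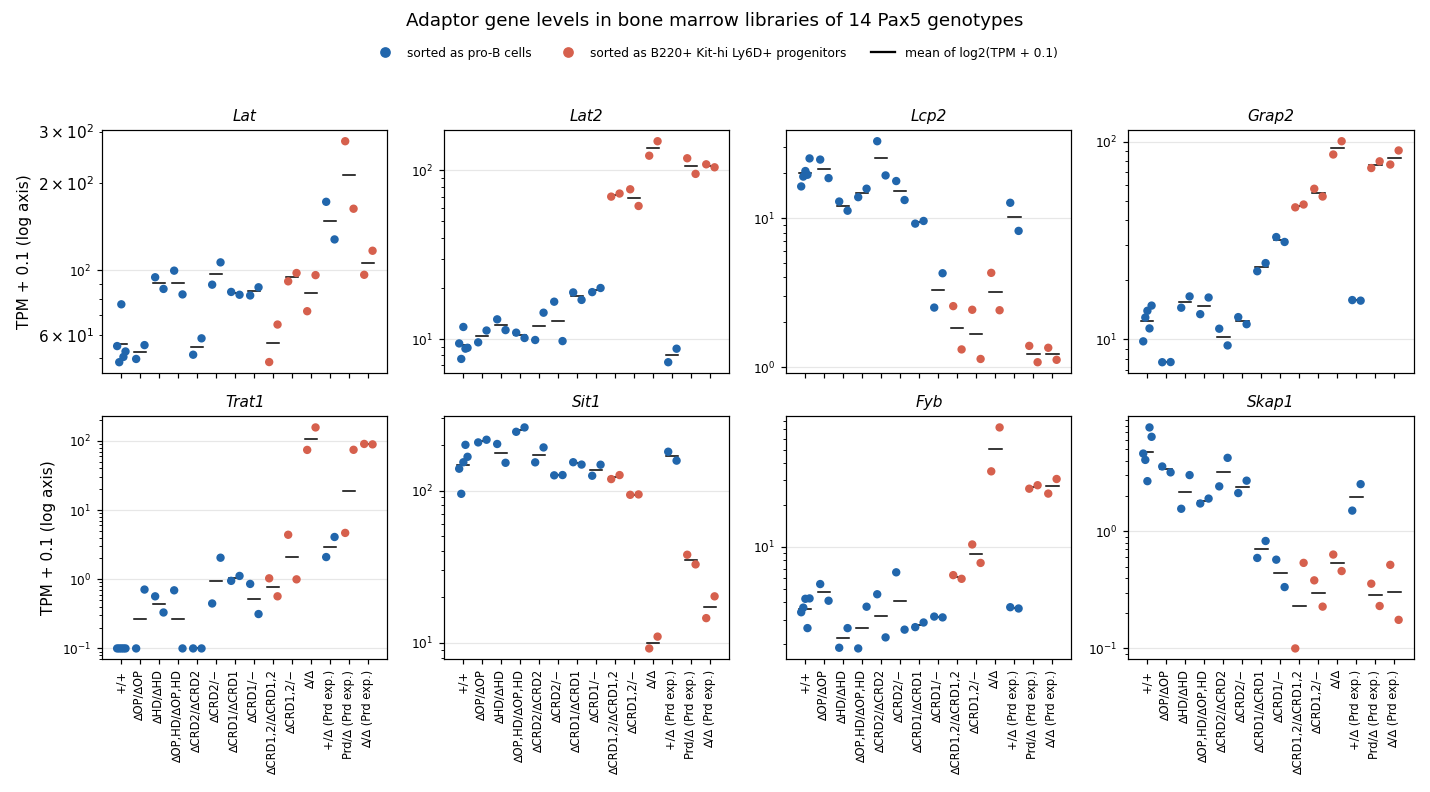
Level of each adaptor gene in every library of the Pax5 series (TPM, log axis, values of 0 drawn at 0.1), by genotype, each point being one library. Lat2 and Grap2 climb from wild type through the ∆CRD1 and ∆CRD1,2 genotypes to ∆/∆, whereas Lcp2 and Skap1 are already low in ∆CRD1/−, and Sit1 is low in both ∆/∆ groups and in Prd/∆.

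Deletion of the central domains left most adaptors without a call. The scaffold gene Lat was the exception in the limma fit: it stood at 94.6 and 86.2 TPM in ∆HD/∆HD and at 99.7 and 82.6 TPM in ∆OP,HD/∆OP,HD, against 50.3 and 52.5 TPM in the 2 wild-type libraries of the same read length. It rose in both, by 0.81 (SE 0.12, adjusted p = 0.0385, limma) and 0.82 (SE 0.12, adjusted p = 0.0241, limma) on the log2(TPM + 0.1) scale, and the groups did not overlap. In ∆OP/∆OP it was at 49.5 and 55.2 TPM. Both calls of Lat were lost whichever of the 8 libraries of the model was left out (adjusted p by limma up to 0.382 for ∆HD/∆HD and 0.213 for ∆OP,HD/∆OP,HD).

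The counts of called genes in the central-domain comparisons were 0 of 7 tested adaptors for ∆OP/∆OP (0.485% of all 12996 genes were called), 1 of 7 for ∆HD/∆HD (0.639%) and 1 of 7 for ∆OP,HD/∆OP,HD (1.22%), where Trat1 was below the filter of 1 TPM. At an unadjusted p under 0.05 the limma fit had 2 for ∆OP/∆OP (Grap2 and Skap1), and edgeR on recovered reads called 1, Grap2 (adjusted p = 0.0477). Grap2 was at 7.58 and 7.59 TPM in ∆OP/∆OP against 11.3 and 14.7 TPM. Lcp2 was at 12.8 and 11.1 TPM in ∆HD/∆HD against 19.5 and 25.1 TPM, without overlap, a difference of -0.88 (SE 0.20, adjusted p = 0.128, limma) that edgeR called (adjusted p = 0.0303). Skap1, the partner of ADAP, was at 1.63 and 1.80 TPM in ∆OP,HD/∆OP,HD against 7.61 and 6.31 TPM, a difference of -1.95 (SE 0.37, adjusted p = 0.0559, limma) that edgeR called (adjusted p = 0.0261). Median changes over the 7 tested genes were 0.02, -0.06 and 0.19, beside -0.03, 0.00 and -0.01 over all genes, in the same order. Summed granulocyte and macrophage markers were 2260 to 2994 TPM in ∆OP/∆OP and 263 to 1910 TPM in the 5 wild-type libraries, and their part in these values was not tested.

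Deletion of the C-terminal domains on one allele gave larger changes in the adaptors. Lcp2, which encodes SLP-76, fell from 20.1 ± 3.24 TPM (SD, n = 5) in Pax5 +/+ to 2.41 and 4.17 TPM in ∆CRD1/−, to 2.32 and 1.03 TPM in ∆CRD1,2/− and to 4.19 and 2.31 TPM in ∆/∆. Means were 6.11-fold, 11.96-fold and 6.18-fold lower, and no library of these genotypes reached the wild-type range. In ∆CRD2/− it was at 17.7 and 13.1 TPM. The fitted changes were -2.76 (SE 0.41, adjusted p = 0.00162, limma) in ∆CRD1/−, -3.74 (SE 0.41, adjusted p = 0.000103, limma) in ∆CRD1,2/− and -2.53 (SE 0.37, adjusted p = 0.000363, limma) in ∆/∆.

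Skap1 fell with it, although from a low level. Its wild-type libraries held 3.97, 2.58, 7.61, 6.31 and 4.51 TPM. It was at 0.473 and 0.234 TPM in ∆CRD1/− (adjusted p = 0.000276, limma), at 0.281 and 0.128 TPM in ∆CRD1,2/− (adjusted p = 4.78e-05, limma) and at 0.533 and 0.358 TPM in ∆/∆ (adjusted p = 0.000367, limma). These are 3 to 14 reads per library. In ∆CRD2/− it was at 2.02 and 2.61 TPM, below 4 of the 5 wild-type libraries (-1.55, adjusted p = 0.236, limma).

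Lat2 and Grap2 moved in the opposite direction and in steps. Lat2 rose from 7.52, 11.7, 8.67, 8.77 and 9.32 TPM in Pax5 +/+ to 18.9 and 19.98 TPM in ∆CRD1/−, 77.2 and 61.4 TPM in ∆CRD1,2/− and 122.3 and 149.0 TPM in ∆/∆. These means were 2.11-fold, 7.54-fold and 14.8-fold above wild type. The changes were 1.15 (SE 0.26, adjusted p = 0.0214, limma), 2.97 (SE 0.26, adjusted p = 2.78e-05, limma) and 3.84 (SE 0.24, adjusted p = 9.37e-07, limma). The first was lost without wild-type replicate 3 or 4 or either ∆CRD1/− library (adjusted p up to 0.134, limma). Grap2, the GADS gene, rose from 12.8, 13.9, 11.3, 14.7 and 9.68 TPM to 32.8 and 31.0 TPM, 57.6 and 52.6 TPM and 85.9 and 100.3 TPM in the same 3 genotypes. Its means were 2.56-fold, 4.42-fold and 7.46-fold higher, with changes of 1.30 (SE 0.20, adjusted p = 0.00195, limma), 2.09 (SE 0.20, adjusted p = 3.96e-05, limma) and 2.94 (SE 0.18, adjusted p = 7.43e-07, limma). In ∆CRD2/− neither was called, with Lat2 at 16.6 and 9.62 TPM and Grap2 at 12.9 and 11.8 TPM.

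Fyb and Trat1 were high in ∆/∆ above all. Fyb, at 3.57, 4.14, 2.51, 4.17 and 3.30 TPM in Pax5 +/+, held 34.8 and 72.0 TPM in ∆/∆, a 15.1-fold higher mean (3.74, SE 0.41, adjusted p = 5.08e-05, limma). The 2 ∆/∆ libraries differed from each other, yet both lay above every wild-type library. In ∆CRD1,2/− it was at 10.3 and 7.58 TPM and just passed (adjusted p = 0.0487, limma), a call lost when any of 9 single libraries was left out of the model (adjusted p up to 0.249, limma) and in the libraries of 1 read length alone (adjusted p = 0.0613, limma). Trat1 was undetected in Pax5 +/+ and held 74.2 and 156.9 TPM (391 and 411 reads) in ∆/∆, at least 305-fold higher than the limit of 3 reads per wild-type library. In ∆CRD1,2/− it held 4.30 and 0.898 TPM (43 and 11 reads), at least 6.86-fold higher (adjusted p = 0.00411, limma). Fitted fold changes of Trat1 against wild type depend on the value of 0.1 added before the logarithm and are not given for that reason.

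Sit1 fell most where Pax5 was missing. It was at 124.9 and 147.6 TPM in ∆CRD1/− and at 125.7 and 126.2 TPM in ∆CRD2/−, inside the wild-type range and without a call. In ∆CRD1,2/− it was at 93.6 and 94.1 TPM, just under the lowest wild-type library of 95.01 TPM (-0.96, SE 0.20, adjusted p = 0.00764, limma). This call was lost without wild-type replicate 3 (adjusted p = 0.0639, limma). It was also lost with replicate number as a block and no read-length term (adjusted p = 0.138, limma). Over all alternative fits the change ran from -1.09 to -0.36. In ∆/∆ Sit1 fell to 9.08 and 10.9 TPM, a 15.1-fold lower mean (-3.66, SE 0.19, adjusted p = 2.09e-07, limma). Lat was at 81.9 and 87.4 TPM in ∆CRD1/−, 89.2 and 106.4 TPM in ∆CRD2/−, 91.6 and 97.8 TPM in ∆CRD1,2/− and 72.3 and 96.2 TPM in ∆/∆. Of these only the ∆CRD1,2/− difference passed in the limma fit (0.88, SE 0.21, adjusted p = 0.012, limma), and it was lost without wild-type replicate 3 or either ∆CRD1,2/− library (adjusted p up to 0.0663, limma). The ∆CRD1/− difference (0.72, SE 0.21, adjusted p = 0.0573, limma), also without overlap, was called by edgeR (adjusted p = 0.0354). Both ∆CRD2/− libraries likewise lay above every wild-type library. Their change of 0.87 by edgeR was of similar size but did not pass (adjusted p = 0.0656, edgeR), so the rise of Lat was not particular to 1 deletion.

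**Figure D2:**
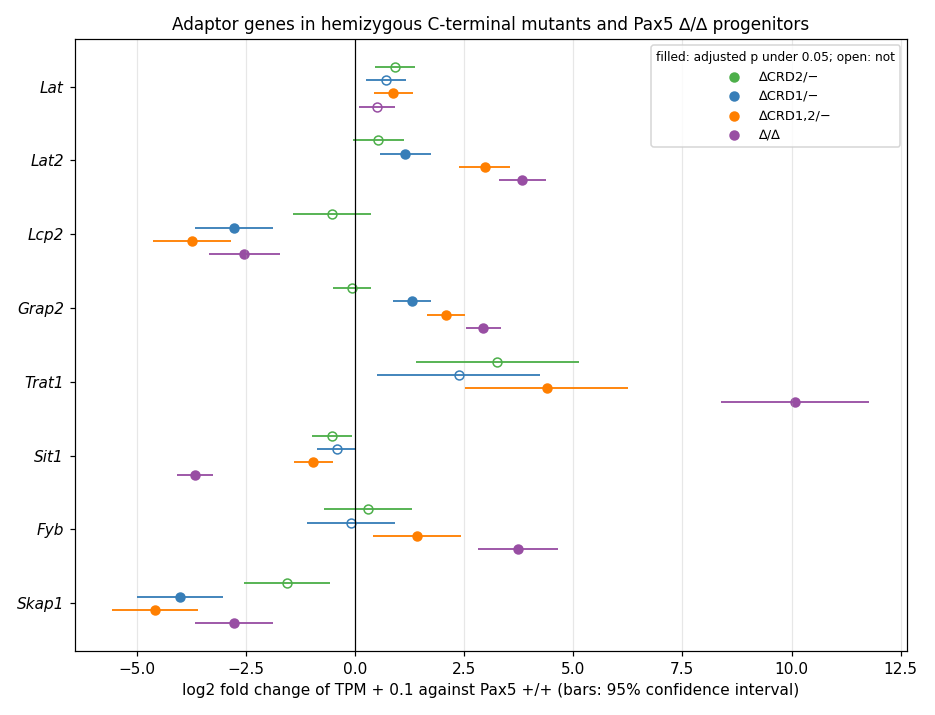
Fitted change of each adaptor gene against Pax5 +/+ (log2 scale of TPM + 0.1, bars 95% confidence intervals) in ∆CRD2/−, ∆CRD1/−, ∆CRD1,2/− and ∆/∆ cells, filled points marking an adjusted p under 0.05. Lat2 and Grap2 take higher values from ∆CRD1/− to ∆CRD1,2/− to ∆/∆, Lcp2 and Skap1 are already near their lowest values in ∆CRD1/−, and Trat1's positions depend on the added 0.1 because no wild-type library had a read.

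In counts, 0 of 8 adaptors were called in ∆CRD2/− (0.513% of all 13637 genes), 4 of 8 in ∆CRD1/− (2 up, 2 down; 8.51%), 8 of 8 in ∆CRD1,2/− (5 up, 3 down; 20.2%) and 7 of 8 in ∆/∆ (4 up, 3 down; 31.7%). For ∆CRD2/− edgeR on recovered reads also called 0, while 4 (Lat, Trat1, Sit1 and Skap1) had an unadjusted p under 0.05 in the limma fit. Granulocyte and macrophage markers summed to 419 and 4628 TPM in the 2 ∆CRD2/− libraries, with 0 of 8 called. They summed to 147 to 211 TPM in ∆CRD1/− and 263 to 1910 TPM in Pax5 +/+. Medians over the 8 genes were 0.12, 0.31, 1.15 and 1.72 on the log2 scale, beside 0.04, 0.03, -0.04 and 0.01 over all genes. These comparisons share the wild-type libraries. As the paper picked Lcp2, Lat2, Grap2, Sit1 and Fyb as examples of changed genes from these same libraries, the counts are no independent test of the adaptors. Among the called genes, a fold over 3 together with a mean above 5 TPM in 1 of the groups (the thresholds of the study) was reached by Lcp2 in ∆CRD1/−, by Lat2, Lcp2 and Grap2 in ∆CRD1,2/−, and by all called genes other than Skap1 in ∆/∆. Summed levels of 8 T-cell markers (Cd3d, Cd3e, Cd3g, Thy1, Lck, Bcl11b, Gata3, Tcf7) were 136 to 174 TPM in Pax5 +/+, 366 to 370 TPM in ∆CRD1,2/− with Cd3e at 0, and 492 to 539 TPM in ∆/∆ with no marker at 0 in both libraries. Of 6 tested, 2 were called higher in ∆CRD1,2/− and 3 in ∆/∆, with 0 called lower in either. Lck, whose own rise is given below, is part of this sum. Markers of plasmacytoid dendritic cells summed to 363 to 419 TPM in Pax5 +/+ and 1038 to 1705 TPM in ∆/∆. Those of natural killer and innate lymphoid cells summed to 24.7 to 45.1 TPM in Pax5 +/+ and 64.7 to 99.1 TPM in ∆/∆. There, 4 of 6 tested were called higher and 1 lower. The pro-B cell genes Cd79a, Cd79b, Vpreb1, Igll1, Ebf1, Rag1 and Dntt summed to 14786 to 19208 TPM in Pax5 +/+, 17819 to 18581 TPM in ∆CRD1/−, 15015 to 15204 TPM in ∆CRD1,2/− (3 of 7 called lower) and 7987 to 9561 TPM in ∆/∆ (5 of 7 called lower, 1 higher). The part of these lists in the adaptor values was not tested. As these are bulk samples, fewer cells of a type and less RNA per cell cannot be told apart.

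Direct comparisons of the hemizygous genotypes separated the deletions. Against ∆CRD2/−, ∆CRD1/− cells had less Lcp2 (4.69-fold lower mean, adjusted p = 0.0144, limma) and Skap1 (6.55-fold lower, adjusted p = 0.0144, limma) and more Grap2 (2.58-fold higher, adjusted p = 0.00425, limma), 3 of 8 genes where 2.95% of all genes were called. The first call was lost without ∆CRD1/− replicate 1 or either ∆CRD2/− library, the second without each of the 4 libraries in turn and the third without ∆CRD1/− replicate 1 (adjusted p up to 0.185, 0.13 and 0.0678, limma). Lat, Fyb, Sit1, Lat2 and Trat1 did not pass. Further removal of CRD2 raised Lat2 3.57-fold over ∆CRD1/− (1.82, SE 0.26, adjusted p = 0.00531, limma), the only 1 of 8 called by limma where 2.17% of all genes were, and this was lost without either ∆CRD1/− library or ∆CRD1,2/− replicate 1 (adjusted p up to 0.0693, limma). Grap2 was 1.73-fold higher (0.79, 95% interval 0.35 to 1.22, adjusted p = 0.0716, limma), Fyb was 2.94-fold higher (adjusted p = 0.138, limma) and Lcp2 1.96-fold lower (-0.98, interval -1.87 to -0.09, adjusted p = 0.296, limma). With edgeR on recovered reads Grap2 (adjusted p = 0.00744) and Fyb (adjusted p = 0.0344) were called besides Lat2.

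On the homozygous background the order of the genotypes was the same for Lat2 and Grap2. Lat2 stood at 9.77 and 14.2 TPM in ∆CRD2/∆CRD2, 18.8 and 17.0 TPM in ∆CRD1/∆CRD1 and 69.9 and 72.9 TPM in ∆CRD1,2/∆CRD1,2. It rose 1.94-fold in ∆CRD1/∆CRD1 (0.93, SE 0.24, adjusted p = 0.0287, limma) and 7.76-fold in ∆CRD1,2/∆CRD1,2 (3.02, SE 0.26, adjusted p = 3.46e-06, limma). Grap2 was at 11.2 and 9.23 TPM, 22.02 and 24.2 TPM and 46.4 and 48.0 TPM in these genotypes, with changes of 0.94 (SE 0.17, adjusted p = 0.00363, limma) in ∆CRD1/∆CRD1 and 1.86 (SE 0.18, adjusted p = 1.11e-05, limma) in ∆CRD1,2/∆CRD1,2.

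Lcp2 was graded where both alleles carried the deletion. ∆CRD1/∆CRD1 libraries held 9.09 and 9.48 TPM, between the wild-type range of 16.2 to 25.1 TPM and the 2.47 and 1.21 TPM of ∆CRD1,2/∆CRD1,2. The first difference did not pass (-0.99, SE 0.37, adjusted p = 0.138, limma), and the second was a 10.9-fold lower mean (-3.60, SE 0.41, adjusted p = 3.56e-05, limma). In ∆CRD2/∆CRD2 it was at 32.8 and 19.3 TPM. Skap1 was at 0.492 and 0.727 TPM in ∆CRD1/∆CRD1 (adjusted p = 0.0241, limma) and at 0 and 0.438 TPM in ∆CRD1,2/∆CRD1,2 (adjusted p = 0.000126, limma), and at 2.32 and 4.14 TPM in ∆CRD2/∆CRD2. The ∆CRD1/∆CRD1 call of Skap1 was lost without either of its libraries or wild-type replicate 1 (adjusted p up to 0.232, limma), and that of Lat2 without the same 3 (up to 0.245, limma). The ∆CRD1/∆CRD1 call of Grap2 was lost without its replicate 2 (adjusted p = 0.0568, limma). Within libraries of 50-nt reads alone the ∆CRD1/∆CRD1 call of Lat2 was lost too (adjusted p = 0.0715, limma).

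Of the remaining 4 adaptors, Sit1 and Trat1 had calls on the homozygous background, none of which held whichever library was left out. Sit1 was at 153.3 and 147.9 TPM in ∆CRD1/∆CRD1 and 118.8 and 126.2 TPM in ∆CRD1,2/∆CRD1,2, the latter inside the wild-type range. Its call there (-0.57, SE 0.19, adjusted p = 0.0419, limma) rests on the read-length term and was lost without it (-0.26, adjusted p = 0.352, limma), as well as when any of 11 single libraries was left out (adjusted p up to 0.231, limma). Fyb was at 2.56 and 2.77 TPM and at 6.17 and 5.80 TPM in these 2 genotypes, without a call, although the latter lay above every wild-type library. Trat1 held 7 reads in each ∆CRD1/∆CRD1 library (0.849 and 1.02 TPM, at least 2.46-fold above the wild-type limit, adjusted p = 0.015, limma) and 8 and 4 reads in ∆CRD1,2/∆CRD1,2 (0.932 and 0.467 TPM, at least 1.84-fold, adjusted p = 0.0203, limma). Both calls of Trat1 were lost with 1 in place of 0.1 added (adjusted p = 0.171 and 0.225, limma), within libraries of 1 read length (0.0666 and 0.0508), with edgeR (0.0688 and 0.069) and with single libraries left out (up to 0.124 and 0.134). Lat was at 84.2 and 82.3 TPM in ∆CRD1/∆CRD1 and 48.3 and 65.0 TPM in ∆CRD1,2/∆CRD1,2, without a call.

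Of the 8 genes, 0 were called in ∆CRD2/∆CRD2 (0.0956% of all 13598 genes; by limma 0 had an unadjusted p under 0.05, and edgeR called 0), 4 in ∆CRD1/∆CRD1 (3 up, 1 down; 8.16%) and 6 in ∆CRD1,2/∆CRD1,2 (3 up, 3 down; 24.6%). Lat2, Lcp2 and Grap2 in ∆CRD1,2/∆CRD1,2 also passed the fold and level thresholds of the study. Medians were -0.03, 0.38 and 0.49, beside 0.02, -0.06 and 0.00 over all genes. T-cell markers summed to 208 to 224 TPM in ∆CRD1/∆CRD1, with Bcl11b at 0, and 254 to 273 TPM in ∆CRD1,2/∆CRD1,2, above the 136 to 174 TPM of Pax5 +/+ (2 of 6 tested called higher in each). Markers of natural killer and innate lymphoid cells summed to 72.5 to 76.4 TPM and 60.0 to 61.2 TPM, against 24.7 to 45.1 TPM. Of 5 tested, 2 were called higher and 1 lower in ∆CRD1/∆CRD1, and 0 higher and 2 lower in ∆CRD1,2/∆CRD1,2. The 7 pro-B cell genes named above summed to 16385 to 17485 TPM and 15675 to 16197 TPM, with 0 and 4 called lower by limma. The part of these lists in the adaptor values was not tested. The direct comparison of ∆CRD1,2/∆CRD1,2 with ∆CRD1/∆CRD1 called 2 of 8 (1.71% of all genes). Lat2 was 3.99-fold higher (2.09, SE 0.35, adjusted p = 0.00853, limma) and Lcp2 5.05-fold lower (-2.61, SE 0.55, adjusted p = 0.0318, limma). Grap2 (0.92, SE 0.25, adjusted p = 0.0905, limma) was called by edgeR alone (adjusted p = 0.0217). The limma calls were lost without ∆CRD1/∆CRD1 replicate 2 or ∆CRD1,2/∆CRD1,2 replicate 2 for Lat2 (adjusted p up to 0.062, limma) and when any of 6 single libraries was left out for Lcp2 (up to 0.155, limma). The 2 genotypes differ in read length, and in gate as assumed here, as well as in CRD2. The step from the CRD1 to the CRD1,2 deletion was also compared between both backgrounds by an interaction term, and no adaptor passed (adjusted p of 0.76 or more by limma). Lcp2 had the lowest unadjusted value, with a difference of -1.63 (95% interval -3.11 to -0.15).

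In progenitors expressing the paired domain alone, Lat2, Grap2 and Fyb rose and Lcp2, Sit1 and Skap1 fell against +/∆ pro-B cells. In the control +/∆ pro-B cells Lat2 was at 7.19 and 8.66 TPM, Grap2 at 15.7 and 15.6 TPM and Fyb at 3.59 and 3.51 TPM. In Prd/∆ these genes rose to 118.0 and 95.3 TPM, 73.4 and 79.4 TPM and 26.1 and 27.6 TPM. In ∆/∆ of the same experiment they were at 108.7 and 104.3 TPM, 76.4 and 90.03 TPM and 24.0 and 30.6 TPM. Against +/∆ the means were 13.5-fold, 4.87-fold and 7.56-fold higher in Prd/∆ and 13.4-fold, 5.31-fold and 7.69-fold higher in ∆/∆, all past the threshold (adjusted p of 4.96e-05 or less, limma).

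Lcp2 and Skap1 fell in both progenitor groups. Lcp2 went from 12.6 and 8.11 TPM in +/∆ to 1.29 and 0.977 TPM in Prd/∆ (adjusted p = 0.00052, limma) and to 1.25 and 1.02 TPM in ∆/∆ (adjusted p = 0.000539, limma), a 9.14-fold lower mean in each. Skap1 went from 1.403 and 2.43 TPM to 0.257 and 0.130 TPM (adjusted p = 0.0183, limma) and to 0.417 and 0.0754 TPM (adjusted p = 0.0204, limma), which is 3 to 17 reads. These Skap1 calls were lost without either +/∆ library or without replicate 2 of the mutant (adjusted p up to 0.107 and 0.114, limma). Between Prd/∆ and ∆/∆ the difference of Lcp2 was -0.01 with a 95% interval of -0.73 to 0.71, that of Lat2 was -0.01 (-0.34 to 0.32), that of Fyb was -0.02 (-0.36 to 0.33) and that of Grap2 was -0.12 (-0.37 to 0.13).

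Sit1 differed between these progenitors. Sit1, at 179.7 and 157.0 TPM in +/∆, was at 37.8 and 32.6 TPM in Prd/∆ and 14.4 and 20.1 TPM in ∆/∆. It was 2.04-fold higher in Prd/∆ than in ∆/∆ (1.04, SE 0.17, adjusted p = 0.0424, limma), with no overlap, but this call was lost when any of 5 of the 6 libraries was left out (adjusted p up to 0.227, limma). Trat1 was at 2.00 and 3.99 TPM in +/∆ (20 and 39 reads) and at 90.5 and 89.2 TPM in ∆/∆ (adjusted p = 0.0152, limma; up to 0.103 with one of these 4 libraries left out). The 2 Prd/∆ libraries disagreed, with 4.58 TPM (39 reads) in one and 74.5 TPM (892 reads) in the other, and neither Prd/∆ difference of this gene passed in the limma fit (adjusted p = 0.106 against +/∆ and 0.327 against ∆/∆), while edgeR on recovered reads called the first (adjusted p = 0.0212). Lat was at 171.9 and 127.6 TPM in +/∆, 277.8 and 162.8 TPM in Prd/∆ and 96.4 and 116.7 TPM in ∆/∆, without a call.

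**Figure D3:**
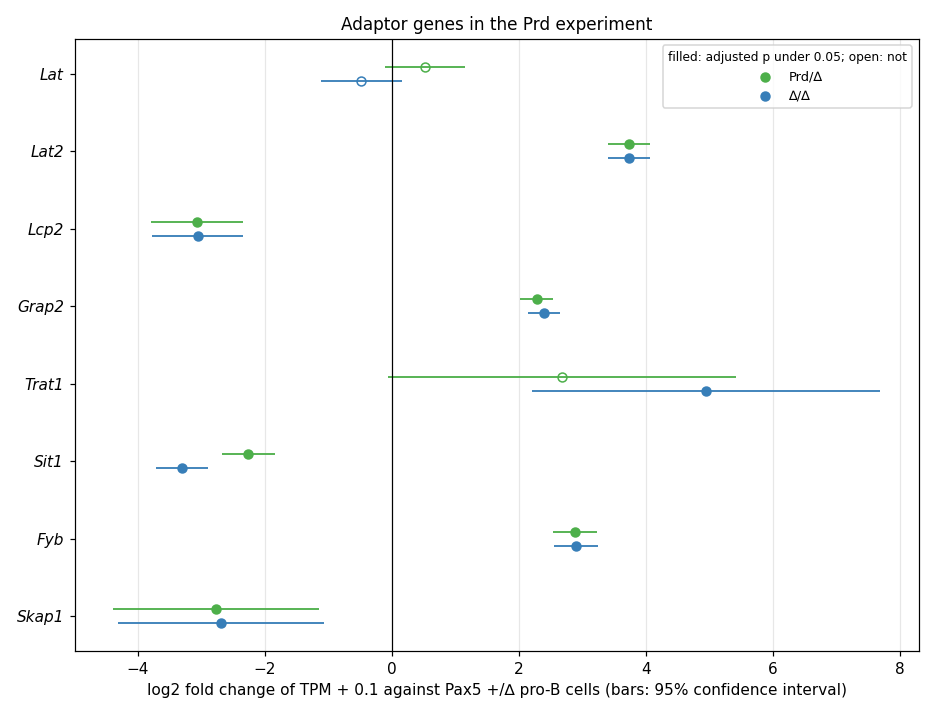
Fitted change of each adaptor gene (log2 scale of TPM + 0.1) for Prd/∆ and for ∆/∆, each against +/∆, in the paired-domain experiment. Bars are 95% confidence intervals, and filled points mark an adjusted p under 0.05. Lat2, Lcp2, Grap2 and Fyb lie at close values in the 2 comparisons, and Trat1 has the widest intervals.

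Called adaptors numbered 7 of 8 in ∆/∆ against +/∆ (4 up, 3 down; 39.9% of all 12941 genes), 6 of 8 in Prd/∆ against +/∆ (3 up, 3 down; 40.7%) and 1 of 8 in Prd/∆ against ∆/∆ (1.97%). All of these other than Skap1 also changed over 2-fold with a mean above 5 TPM in 1 group, the thresholds the study set here. Medians were 0.96, 1.399 and -0.01, beside 0.00, 0.08 and 0.07 over all genes. Of all calls between Prd/∆ and ∆/∆, 59.6% were higher in Prd/∆, and 47.8% after TMM scaling of the TPM values. T-cell markers summed to 185 to 210 TPM in +/∆, 399 to 463 TPM in Prd/∆ and 475 to 488 TPM in ∆/∆, and the 7 pro-B cell genes to 14971 to 15083 TPM, 9960 to 10768 TPM and 8605 to 8859 TPM. Plasmacytoid dendritic cell markers went from 426 to 447 TPM in +/∆ to 567 to 676 TPM in Prd/∆ and 552 to 708 TPM in ∆/∆, with 6 of 7 tested called higher in each. Granulocyte and macrophage markers went from 88.3 to 103 TPM to 218 to 238 TPM (3 of 7 called higher) and 215 to 319 TPM (5 of 7). The part of these lists in the adaptor values was not tested.

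Along early T-cell development most adaptors climbed from LMPP to DN3a. Lat, the scaffold of the T-cell receptor, was at 88.5 and 79.6 TPM in LMPPs, at 135.9, 136.6 and 135.0 TPM in DN1, at 347.8, 346.8 and 301.6 TPM in DN2a, at 877.3, 830.0 and 822.7 TPM in DN2b and at 2111 and 1800 TPM in DN3a. Each step passed, with changes of 0.69, 1.29, 1.35 and 1.21 on the log2 scale (adjusted p of 0.000173, 2.94e-07, 2.83e-07 and 8.64e-07, limma), and successive stages did not overlap. In DN3b it fell to 883.9 and 813.3 TPM (-1.201, SE 0.11, adjusted p = 9.67e-07, limma). Lat and Grap2 carry a suffix in these files whose meaning is not given and which may mark an overlapping gene.

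Grap2 and Skap1 rose steeply between LMPP and DN1. Grap2 rose from 3.94 and 3.60 TPM to 64.2, 55.8 and 69.7 TPM (4.03, SE 0.20, adjusted p = 9.75e-09, limma), did not change detectably to DN2a (-0.02, 95% interval -0.41 to 0.36) and rose again to 135.8, 169.5 and 127.6 TPM in DN2b and 287.5 and 280.2 TPM in DN3a. Skap1 rose from 0.557 and 0.765 TPM to 8.46, 10.4 and 8.96 TPM in DN1, to 50.9, 41.7 and 37.8 TPM in DN2a and to 228.0, 249.8 and 275.8 TPM in DN2b. These 3 steps had changes of 3.63, 2.21 and 2.54 (adjusted p of 1.69e-09, 9.45e-08 and 4.63e-08, limma). It then stayed at 278.6 and 257.8 TPM in DN3a and 228.7 and 240.6 TPM in DN3b, without a call.

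Trat1 and Fyb rose at different steps. Trat1 went from 0.727 and 0.705 TPM in LMPPs to 13.8, 20.2 and 10.5 TPM in DN1, to 163.4, 133.6 and 165.3 TPM in DN2a and to 368.9, 245.3 and 296.9 TPM in DN2b, its highest stage. The changes were 4.14, 3.41 and 0.97 (adjusted p of 1.94e-08, 6.91e-08 and 0.00391, limma). In DN3a it was at 238.2 and 226.2 TPM (adjusted p = 0.198, limma). Fyb was at 33.3 and 36.2 TPM in LMPPs and 35.2, 32.8 and 42.4 TPM in DN1, overlapping, and then rose to 84.8, 129.1 and 68.2 TPM in DN2a, 199.2, 243.2 and 169.1 TPM in DN2b and 412.8 and 376.7 TPM in DN3a (1.31, 1.15 and 0.97, adjusted p of 0.000229, 0.000801 and 0.00272, limma).

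Sit1 came late. It was listed at 0 in both LMPP libraries and held 1.93, 1.42 and 0.697 TPM in DN1 and 2.01, 1.95 and 2.41 TPM in DN2a, then 14.8, 12.8 and 25.1 TPM in DN2b and 58.4 and 51.4 TPM in DN3a. The rises to DN2b (2.93, SE 0.30, adjusted p = 9.86e-06, limma) and DN3a (1.70, SE 0.33, adjusted p = 0.00106, limma) passed. That to DN1 also passed (adjusted p = 2.19e-06, limma), but it takes entries of exactly 1 in these files as 0 and was lost when they were read as 1 (adjusted p = 0.614, limma). Lcp2 was present throughout, at 47.6 and 55.1 TPM in LMPPs, 108.9, 114.4 and 132.2 TPM in DN1 and 219.5 and 190.9 TPM in DN3a. Its steps to DN1 (1.205, SE 0.18, adjusted p = 0.000278, limma) and to DN3a (0.78, SE 0.18, adjusted p = 0.0034, limma) passed, and those between were not called.

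Lat2 ran against the other adaptors. It was at 151.4 and 108.4 TPM in LMPPs, 167.0, 167.4 and 166.2 TPM in DN1 and 182.1, 171.0 and 207.9 TPM in DN2a, without a call between them. It then fell at every step, to 89.6, 63.5 and 71.5 TPM in DN2b (-1.33, SE 0.17, adjusted p = 9.92e-05, limma), 32.6 and 23.1 TPM in DN3a (-1.43, SE 0.19, adjusted p = 6.54e-05, limma) and 2.88 and 2.61 TPM in DN3b (-3.28, SE 0.21, adjusted p = 4.97e-08, limma). In level (TPM), Lat2 was above Lat in every LMPP and DN1 library, and Lat was above Lat2 in every library of DN2a, DN2b, DN3a and DN3b.

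**Figure D4:**
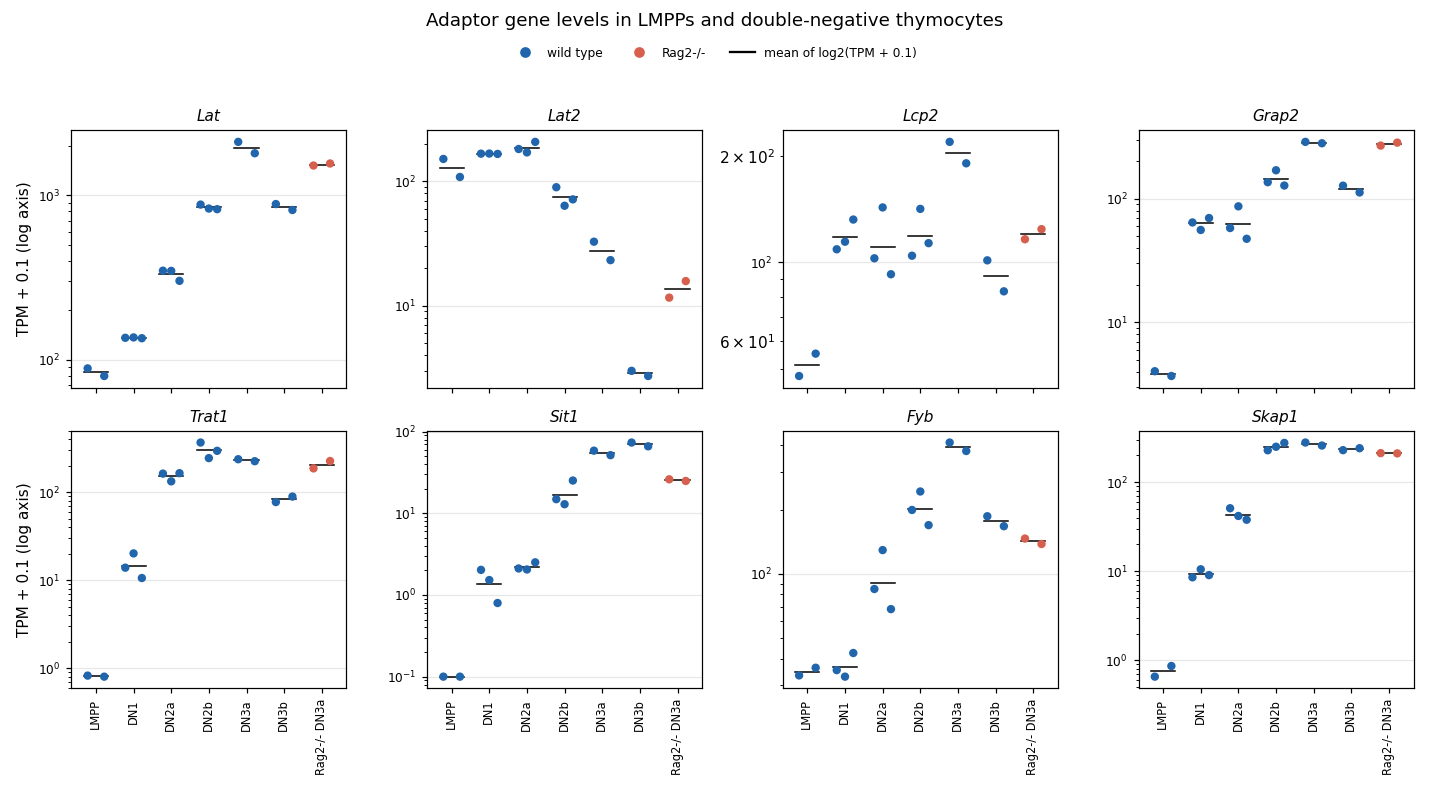
Level of each adaptor gene in every library of LMPPs, DN1, DN2a, DN2b, DN3a, DN3b and Rag2-/- DN3a cells (TPM, log axis, values of 0 drawn at 0.1), each point being one library. Lat, Grap2, Fyb, Sit1, Trat1 and Skap1 climb from LMPP towards DN2b or DN3a, Lat2 descends from DN2a to DN3b, and Lcp2 stays within 47.6 to 219.5 TPM.

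DN3b cells, which have passed the pre-T-cell receptor checkpoint, held less of 6 adaptors than DN3a cells. Besides Lat and Lat2, Lcp2 fell to 101.3 and 82.7 TPM, Grap2 to 127.3 and 112.1 TPM, Trat1 to 77.6 and 89.6 TPM and Fyb to 186.1 and 167.2 TPM (changes of -1.16 to -1.48, adjusted p of 0.000987 or less, limma). Sit1 was at 73.5 and 66.0 TPM in DN3b, above both DN3a libraries but without a call (0.35, 95% interval -0.43 to 1.13). The median gene also shifted between these stages. Without TMM scaling the median change over all genes was -0.41, against -1.18 over the 8 adaptors. TMM scaling of the TPM values moved the median over all genes by 0.228.

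DN3a cells labelled Rag2-/- had less Fyb, at 146.3 and 137.9 TPM against 412.8 and 376.7 TPM (-1.47, SE 0.24, adjusted p = 0.000792, limma), less Lat2, at 11.5 and 15.7 TPM (adjusted p = 0.00357, limma), and less Lcp2, at 116.2 and 124.2 TPM (adjusted p = 0.0126, limma). The last 2 were lost without DN3a replicate 1, and that of Lcp2 also without Rag2-/- replicate 1 (adjusted p up to 0.0532 and 0.0997, limma). Sit1, at 26.0 and 24.8 TPM (adjusted p = 0.0379, limma), and Lat, at 1516 and 1560 TPM (adjusted p = 0.0333, limma), lost their calls after TMM scaling (adjusted p = 0.105 and 0.401, limma). Each also lost it without single libraries, Lat without DN3a replicate 1 or either Rag2-/- library and Sit1 when any of 7 single libraries was left out (adjusted p up to 0.241 and 0.171, limma). Grap2 and Trat1 overlapped with wild type. Skap1 was at 211.8 and 210.4 TPM against 278.6 and 257.8 TPM, lower without overlap but without a call.

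Called adaptors over the stages were 6 of 8 from LMPP to DN1 (all higher; 18.6% of all 13482 genes called), 4 of 8 from DN1 to DN2a (all higher; 33.7%), 7 of 8 from DN2a to DN2b (6 higher; 18.2%), 6 of 8 from DN2b to DN3a (5 higher; 45.8%), 6 of 8 from DN3a to DN3b (all lower; 53.4%) and 5 of 8 in Rag2-/- against wild-type DN3a cells (all lower; 26.4%). The thresholds of the study (3-fold and 5 TPM) were also passed by Grap2, Trat1 and Skap1 in DN1, Trat1 and Skap1 in DN2a, Sit1 and Skap1 in DN2b, Sit1 in DN3a and Lat2 in DN3b. Medians over the 8 genes were 2.42, 1.00, 1.18, 0.88, -1.18 and -0.56, beside -0.05, -0.18, 0.08, 0.27, -0.41 and -0.18 over all genes. Scaling by TMM moved the median change over all genes by 0.176 from DN1 to DN2a, -0.228 from DN2b to DN3a, 0.228 from DN3a to DN3b and 0.174 for Rag2-/-. It took the share of calls that were higher from 36.2% to 49.2% (DN1), from 32.2% to 48.6% (DN2a), from 53.7% to 46.1% (DN2b), from 68.5% to 51.7% (DN3a), from 26.5% to 39.4% (DN3b) and from 26.2% to 42.5% (Rag2-/-). T-cell markers summed to 123 TPM in LMPPs and to 18748 to 18967 TPM in DN3a, with no marker at 0. Granulocyte and macrophage markers summed to 1958 to 2230 TPM in DN1, 528 to 547 TPM in DN2a (7 of 8 called lower), 51.5 to 70.3 TPM in DN2b, 47.4 to 51.6 TPM in DN3a and 0.933 to 2.76 TPM in DN3b. Basophil and mast cell markers went from 371 to 496 TPM in DN2a to 214 to 236 TPM in DN2b, 52.2 to 71.5 TPM in DN3a and 10.97 to 13.9 TPM in DN3b. Lat2 fell over these last steps too, and the part of these lists in its values was not tested. Adjacent comparisons share the libraries of the stage between them.

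Other components of these complexes were counted from lists chosen by function. The shares of all genes called, for reading these counts, were 8.51% in ∆CRD1/−, 20.2% in ∆CRD1,2/− and 31.7% in ∆/∆. Among 25 tested adaptors outside the 8, 3 were called in ∆CRD1/− (2 up, 1 down), near the share of all genes, 10 in ∆CRD1,2/− (5 up, 5 down) and 16 in ∆/∆ (9 up, 7 down), with medians of -0.08, 0.00 and 0.06. Clnk, a relative of SLP-76, rose from 0.0784 to 11.8 TPM (means) in ∆/∆ (adjusted p = 4.74e-05, limma) and to 1.56 TPM in ∆CRD1,2/− (adjusted p = 0.00729, limma). Blnk, the SLP-76 counterpart of B cells, fell by 1.59 on the log2 scale in ∆CRD1,2/− (adjusted p = 0.000246, limma). Pik3ap1, the B-cell adaptor BCAP that links receptors to phosphoinositide 3-kinase, fell from 569 TPM to 152, 74.3 and 119 TPM in ∆CRD1/−, ∆CRD1,2/− and ∆/∆. Sla2, a negative regulator of receptor signalling, rose from 8.05 to 29.5 TPM in ∆CRD1,2/− and 64.8 TPM in ∆/∆.

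Of 24 tested kinases and effectors, 5 were called in ∆CRD1/− (3 up, 2 down), 11 in ∆CRD1,2/− (6 up, 5 down) and 14 in ∆/∆ (9 up, 5 down), with medians of 0.08, 0.01 and 0.08. Zap70, the kinase that phosphorylates LAT and SLP-76 below the T-cell receptor, fell from 17.0 to 2.39 TPM in ∆CRD1/− (-2.83, adjusted p = 0.000489, limma) and to 4.13 TPM in ∆CRD1,2/− (adjusted p = 0.00232, limma). Lck, the Src-family kinase of T cells, rose from 78.6 to 240 TPM in ∆CRD1,2/− and 345 TPM in ∆/∆. Prkcq fell from 12.4 to 4.30, 1.98 and 1.37 TPM in the 3 genotypes. The paired-domain experiment gave 17 called of 25 other adaptors (9 up, 8 down) and 14 of 23 kinases and effectors (7 up, 7 down) in ∆/∆ against +/∆, where 39.9% of all genes were called.

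The integrin module of ADAP and SKAP1 was called in 2, 2 and 6 of 15 tested genes in ∆CRD1/−, ∆CRD1,2/− and ∆/∆, beside 8.51%, 20.2% and 31.7% of all genes. Its protein kinase Prkd2 fell from 305 to 122, 70.7 and 46.6 TPM, and the integrin subunit gene Itgb7 fell from 3.49 to 0.371 TPM in ∆CRD1/− but rose to 46.4 TPM in ∆/∆. Among receptor chains and co-receptors 1, 3 and 6 of 10 were called. Cd247, the zeta chain that TRIM associates with, rose from 1.67 to 6.74 TPM in ∆CRD1,2/− and 21.5 TPM in ∆/∆. From DN2b to DN3a, 17 of 25 kinases and effectors were called, 14 of them higher, where 45.8% of all genes were called and 68.5% of these calls were higher. From DN3a to DN3b 17 of 25 were called, 16 of them lower, and 18 of 27 other adaptors, 17 of them lower, where 53.4% of all genes were called and 26.5% of these calls were higher. Ptcra, the pre-T-cell receptor chain, rose from 12.2 to 985.4 TPM between DN2b and DN3a (6.72, adjusted p = 3.17e-06, limma) and was at 192 TPM in DN3b.

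Genes with the profile most like each adaptor were sought over the 14 Pax5 genotype means, among 11026 genes above 5 TPM in some genotype, by Pearson's r. These means share libraries and gates and are no independent points. Lat2 lay nearest to Il18rap (r = 0.987), Plch1 and Gpr25, and Grap2 to Pglyrp2 (0.986), Fgd2 and Syndig1l. Fyb lay nearest to Havcr2 (0.981), Mn1 and Bmp8a, and Trat1 to Cux1 (0.965), Retnlb and Cd247. Lcp2 lay nearest to Dusp3 (0.986), Sh3yl1 and Plxdc1, and Sit1 to Vpreb1 (0.987), Ttll11 and Cplx2. Lat had no close match (0.896 with Rragb). Skap1 stayed at or below 5 TPM in every genotype mean and was not compared.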

How the data were processed

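Gene expression was taken from 48 RNA-seq libraries, 31 of the Pax5 series and 17 of LMPPs and thymocytes; the ChIP-seq, ATAC-seq and other files of the series were not used here. Per the paper's methods and the submitters' processing notes, the authors trimmed reads, aligned them (STAR 2.4.2a to GRCm38/mm10 for the Pax5 series and TopHat 1.4.1 for LMPPs and thymocytes; mm9 is also listed), counted reads per gene and deposited TPM values. The deposited count column of files that also hold one was used to check row orders. Files without gene names (∆CRD2/∆CRD2 and the Prd experiment) were matched by the row order of a named file, checked against implied gene lengths, which agreed within 1 percent for 100% of the 14405 rows with reads in both files compared. The mm9 files hold TPM values that the authors deposited as 2 rows per gene, recorded as a score because both rows together exceed the usual TPM total; the rows were averaged, and an entry of exactly 1 was taken as 0. These sets were normalized separately and tested only within themselves.

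Values were fitted as log2(TPM + 0.1) with limma 3.58.1 (R 4.3.3, trend on mean expression) over all genes above 1 TPM in at least 1 library of the model, with two-sided p-values adjusted by Benjamini and Hochberg over all genes tested and called at an adjusted p under 0.05. Fold changes on this scale understate changes of low genes, and folds quoted as fold are ratios of mean TPM. Read length was a term in the C-terminal models. Whole reads could be recovered from TPM (100% of the 7394 to 11880 values of low read number tested per library lay within 0.01 of a whole number, in all 31 libraries) and were tested with edgeR 4.0.16 as an alternative, which called, for example, 4226 genes for ∆/∆ against Pax5 +/+ (limma 4325). The scripts were tested on simulated data. Groups came from the sample labels.

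The 8 genes and the lists were chosen with earlier results of these data known. All 8 genes are described, and of each list at most the 4 called genes with the largest change in a comparison may be named. Profile neighbours are the 3 genes with the highest r. Of the pro-B cell marker list, 7 genes are reported and the rest is not reported here.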

Additional observations from a re-analysis of the deposited data

Results flagged for a closer look

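Lat in Pax5 +/+ was flagged because 1 of the 5 libraries stood apart: replicate 2 held 76.3 TPM and the other 4 held 48.2 to 54.8 TPM. Chance alone flags about 1 in 20 groups by this criterion. The library is one of 3 wild-type libraries with 50-nt reads and is in every C-terminal comparison with wild type, but not in those of the central domains. The call of Lat in ∆CRD1,2/− was kept without it.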

How the results depend on the processing

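Of 85 called adaptor results, 59 held whichever library was left out and 26 did not. Over 2025 recomputed values, 1882 kept direction and call, 142 lost the call and 1 reversed. The reversal was Sit1 in ∆CRD1,2/∆CRD1,2, at 0.021 (adjusted p = 0.937, limma) with replicate number as a block and no read-length term. Calls in the central-domain comparisons numbered 2, becoming 1 without the filter on low values, 0 without the trend of the spread, 5 with edgeR on recovered reads and 0 to 0 with each library left out. Homozygous calls numbered 12 and ran from 5 to 13 with each library left out (5 without ∆CRD1/∆CRD1 replicate 2 and 7 without its replicate 1). Leaving out libraries gave 17 to 25 hemizygous calls (23 in all), 10 to 16 in the Prd experiment (14) and 30 to 35 over the T-lineage stages (34). Where an arm was left with 1 library, it was assumed to vary like the other groups.

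Replicate numbers did not pair libraries: same-numbered libraries deviated together with correlations of -0.24 to 0.13 (hemizygous), -0.10 to 0.16 (homozygous), -0.11 to 0.04 (Prd) and -0.29 to 0.18 (T lineage). The replicate block gave 14 calls in the Prd experiment and 34 over the T-lineage stages. With the block and no read-length term, 2 changes at once, there were 18 hemizygous and 11 homozygous calls, against 27 and 13 with no read-length term alone. No paired analysis was possible because wild-type replicates 3 and 4 share no number with the mutants in the central-domain comparisons. ∆CRD1,2/∆CRD1,2 could not be compared with ∆CRD1/∆CRD1 within 1 read length. Mutant genotypes with 2 libraries each, and the low read numbers of Trat1 and Skap1, limit the precision.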
